A study of Danio rerio with 6 samples.

Results

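Integrins are receptors made of an alpha and a beta subunit that bind the extracellular matrix outside the cell and, through adaptor proteins at the beta tail, the actin cytoskeleton inside it. Talins and kindlins bind the tail and switch the receptor on. ILK, PINCH and parvins, vinculin and zyxin then tie it to actin, while focal adhesion kinase, Src, paxillin and the Cas proteins pass signals on. In the sympathetic lineage, integrins are best known for the migration of neural crest cells over laminin and fibronectin. The genes described here are the rows of the count table whose symbols begin with the names of numbered and alpha-V integrin subunits, or with those of talins, kindlins, ILK, PINCH, parvins, vinculin, zyxin, tensins, focal adhesion kinases, Src, paxillin, the Cas proteins bcar1 and nedd9, GIT proteins and arhgef7. There were 40 such genes among 14781 in the table, comprising 15 subunit symbols, 24 cytoplasmic adaptors and 1 protein that binds the beta 1 tail (itgb1bp1). Of these, 39 passed the low-count filter, against 12821 genes overall. No row matched the symbols searched for tensins, a second vinculin or paxillin gene or the leukocyte beta 2 subunit, so these were not analysed here.

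The samples were zebrafish (Danio rerio) neuroblastomas of the peripheral sympathetic nervous system. Tumours with MYCN overexpression only (MYCN-only, 3 libraries) were compared with tumours with MYCN overexpression and gas7 knockout (knockout, 3 libraries), so all 6 are labelled as overexpressing MYCN. By its title, the series asked whether loss of GAS7, a protein that binds membranes and actin, promotes metastasis. The sources used here do not give the age of the fish, the promoter that drives MYCN or the number of mutant lines. No label says that each library is a separate fish, and p-values therefore cover only the spread among these samples, which may be technical. Levels are read counts scaled to a common library size (CPM), with sizes adjusted for library composition (TMM). They are not divided by gene length and are compared only within a gene.

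Total counts ran from 12054844 to 33305326 per library, of which the 40 genes took 0.135% to 0.213%. The labelled tissue was checked with 21 sympathetic neuroblast markers in the table, with gap43 at 0 in all 6 libraries. They summed to 14000, 6110 and 8300 CPM in knockout libraries 1 to 3 and 8150, 9960 and 9420 CPM in MYCN-only libraries 1 to 3. The most counted of them were th and dbh, at log2 fold changes of 0.45 and 0.08. Without th the sums were, in the same order, 9080, 3550 and 5110 CPM and 6490, 6180 and 7100 CPM. Knockout library 1 then lay above, and knockout libraries 2 and 3 below, every MYCN-only library. Of the 20 markers tested, 12 had negative log2 fold changes (median -0.16), against 47.6% of all genes. In 6 the groups did not overlap, with knockout the lower, against 12.3% of all genes. Among these 6 were ddc (-1.90), phox2a (-1.13) and tfap2a (-1.12). The labels do not say which gas7 copy was mutated or how. The gas7 symbol in the table, gas7a, had 14.8, 13.9 and 10 CPM across the knockout libraries and 23, 9.69 and 32.7 CPM across the MYCN-only ones, so its groups overlapped (log2 fold change -0.76, SE 0.47; edgeR adjusted p = 0.411) and its level did not check the labels. The fish gene mycn had 1.3, 1.94 and 2.18 CPM across the knockout libraries and 3.55, 5.87 and 4.15 CPM across the MYCN-only ones (log2 fold change -1.32, SE 0.45; edgeR adjusted p = 0.215). The labels do not say whether the MYCN transgene is counted under that symbol. Knockout libraries 2 and 3 stood apart: 19 ovary and oocyte markers summed to 6400 and 7880 CPM there, against 49.4 CPM in knockout library 1 and 20.4 to 30.1 CPM for MYCN-only. MYCN-only library 2 stood apart as well, with 18 epidermal and epithelial markers at 6980 CPM, against 1480 and 1800 CPM in the other MYCN-only libraries and 837 to 2810 CPM in knockout, and 21 muscle markers at 3470 CPM, against 357 to 1010 CPM elsewhere. Of 20 muscle markers tested, 17 had negative log2 fold changes (median -1.34), against 47.6% of all genes. In 7 of them the groups did not overlap, with knockout the lower, against 12.3% of all genes. In 1 they did not overlap with knockout the higher, against 11.6%. Intestinal and kidney markers differed between the genotypes. Without apoa1b, which made up most of their sum in several libraries, the other 15 in the table summed to 310 to 933 CPM for knockout and 1520 to 2760 CPM for MYCN-only, with MYCN-only library 2 the lowest of its group. Of 15 tested, 14 had negative log2 fold changes (median -2.02), against 47.6% of all genes. In 8 the groups did not overlap, with knockout the lower, against 12.3% of all genes. Among these 8 were pax2a (-2.0) and cdh17 (-2.02). The part of these tissues in the results below was not tested, and in bulk samples fewer cells of a type and less RNA per cell cannot be told apart.

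Most integrin and adhesion genes lay lower in knockout tumours. The clearest differences were in the beta subunit genes itgb4, itgb3b and itgb1b.1 and in the adaptor gene ptk2bb. Of the 39 tested genes, 31 had a negative log2 fold change, as did 47.6% of all genes tested, and 8 had a positive one, as did 52.4%. edgeR's quasi-likelihood test called 0 of them at an adjusted p under 0.05, as it called 0% of all genes. At an unadjusted p under 0.05 there were 8 lower genes (20.5%), against 7.57% of all genes, and 0 higher genes, against 11.5% of all genes. The groups did not overlap, with knockout the lower, for 9 of the genes, against 12.3% of all genes, and with knockout the higher for 0, against 11.6%. DESeq2 called 4 as lower (4.06% of all genes) and 0 as higher (6.34%). limma-voom called 0 in either direction (0% of all genes as lower and 0.0078% as higher). The genes with these differences were itgb4, itgb3b, itgb1b.1, itga8 and itga5 among the subunits, and ptk2bb, bcar1, git2a, lims1 and ilk among the adaptors.

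**Figure D1:**
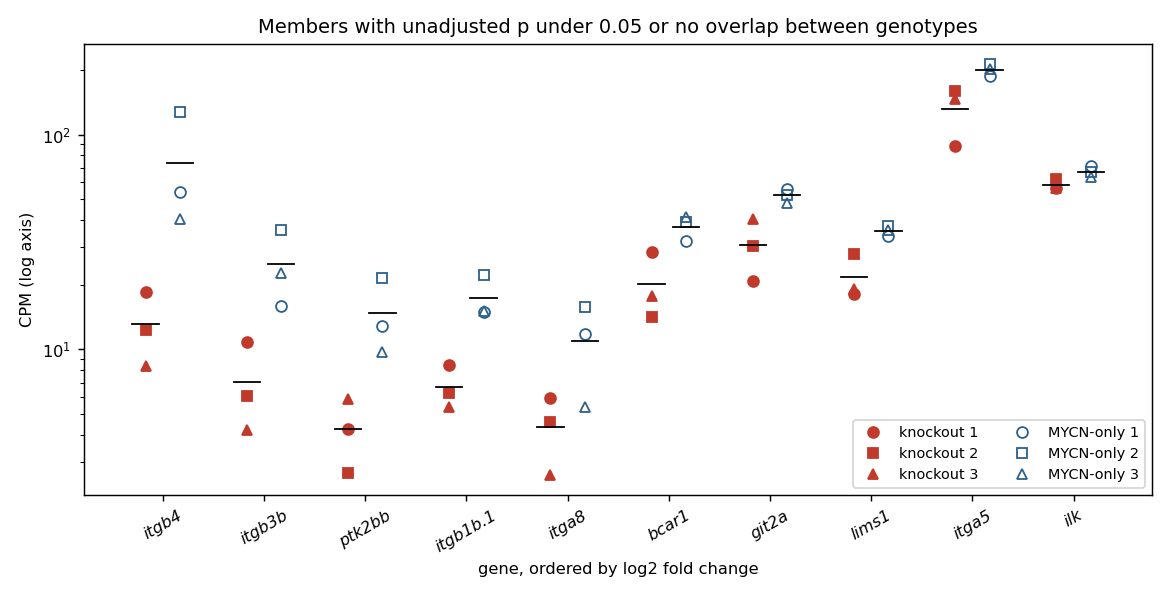
Level in each library, in CPM on a log axis, of the 10 members with an unadjusted p under 0.05 or with genotypes that did not overlap. Filled red symbols are the 3 knockout libraries, open blue symbols the 3 MYCN-only libraries, and black lines the group means; itgb4 stood at 8.37 to 18.6 CPM for knockout and 40.4 to 127 CPM for MYCN-only, while ilk stood at 56.4 to 62.1 and 63.2 to 71.3 CPM.

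The subunit with the widest difference was itgb4, which pairs with alpha 6 to bind laminin and, in mammalian skin, anchors hemidesmosomes to keratin. Knockout libraries 1 to 3 had 18.6, 12.3 and 8.37 CPM of it, and MYCN-only libraries 1 to 3, listed in the same order from here on, 54.1, 127 and 40.4 CPM. The groups did not overlap, and MYCN-only library 2, the library with the most epithelial marker reads, was the highest. The epidermal and epithelial markers lay mostly lower in knockout as well, 14 of 17 tested (median log2 fold change -1.23), against 47.6% of all genes. An unadjusted p under 0.05 was found for 5 lower ones, such as krt5 (-5.88), against 7.57% of all genes. It was also found for 3 higher ones, such as epcam (4.40), against 11.5% of all genes. The part of these markers in the itgb4 difference, and that of the intestinal and kidney markers, was not tested. The log2 fold change was -2.49 (SE 0.54; edgeR unadjusted p = 0.00284, adjusted p = 0.174). Without MYCN-only library 2 it was -1.82 (SE 0.42; edgeR adjusted p = 0.384). DESeq2 called the gene (adjusted p = 0.00055), as did edgeR without knockout library 1 (adjusted p = 0.0306). That fit, cited again below, kept only knockout libraries 2 and 3, those with ovary and oocyte transcripts. Over all 15 alternative settings the adjusted p of itgb4 ran from 0.00055 to 0.416.

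The beta 3 gene itgb3b encodes the partner of alpha V in vitronectin binding and of alpha IIb on thrombocytes, the fish counterpart of platelets. It stood at 10.8, 6.09 and 4.20 CPM for knockout and 16, 36.1 and 22.6 CPM for MYCN-only. There was no overlap between the groups, although knockout library 1 came closer to the MYCN-only libraries than knockout libraries 2 and 3 did. The log2 fold change was -1.83 (SE 0.48; edgeR adjusted p = 0.184), and -1.43 without MYCN-only library 2. DESeq2 called it (adjusted p = 0.0111), as did edgeR without knockout library 1 (adjusted p = 0.0272, in a range of 0.0111 to 0.423 over the 15 settings). Its duplicate itgb3a had few reads, 24 to 84 counts per library, and stood at 1.14 to 2.28 CPM in all libraries except MYCN-only library 2, at 7.47 CPM. Its log2 fold change of -1.01 (SE 0.79) turned to 0.26 without that library. The alpha IIb gene itga2b, at 1.87 to 6.09 CPM for knockout and 1.92 to 4.62 CPM for MYCN-only, had a log2 fold change of 0.10 (SE 0.61). The 9 thrombocyte markers in the table had a median log2 fold change of 0.04, with 6 higher and 3 lower, against 52.4% and 47.6% of all genes. Their sums did not overlap, with knockout the higher, at 430, 212 and 228 CPM for knockout and 163, 181 and 117 CPM for MYCN-only. Without cd9b, the most counted, the sums were 200, 173 and 184 CPM for knockout and 133, 147 and 78.5 CPM for MYCN-only. f13a1b (1.39) had an unadjusted p under 0.05 as higher, as did 11.5% of all genes, while mpl stood at -0.70 and nfe2 at -0.50. In 2 of the 9, f13a1b and cd9b (1.60), the groups did not overlap, with knockout the higher, against 11.6% of all genes. With knockout the lower there were 0, against 12.3% of all genes. f13a1a.1 stood at 2.26 with overlapping groups.

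Beta 1 is the subunit shared by most integrins that bind fibronectin, laminin and collagen, and the table held 4 symbols for it. itgb1b.1 stood at 8.46, 6.28 and 5.41 CPM for knockout and 14.9, 22.1 and 15.1 CPM for MYCN-only. No knockout library reached the MYCN-only range, and the log2 fold change was -1.37 (SE 0.33; edgeR adjusted p = 0.177, and 0.0043 to 0.417 over the 15 settings). It was called by DESeq2 (adjusted p = 0.0043) and by edgeR without knockout library 1 (adjusted p = 0.0310). itgb1a stood at 106, 50.6 and 45.2 CPM for knockout and 84.4, 93.3 and 76.3 CPM for MYCN-only. Knockout library 1 was above the MYCN-only range and the other knockout libraries below it, so the log2 fold change over all 6 was -0.33 (SE 0.37; edgeR adjusted p = 0.655). Without knockout library 1 it was -0.82 and passed (edgeR adjusted p = 0.0363, in a range of 0.0363 to 0.923), and in knockout library 1 alone it was 0.34. itgb1b.2 stood at 11.9, 3.66 and 10.2 CPM for knockout and 5.71, 31.7 and 12.6 CPM for MYCN-only. Its groups overlapped, and the log2 fold change of -0.96 (SE 0.72) was -0.09 without MYCN-only library 2.

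Shares of reads within the beta 1 genes do not depend on how libraries are scaled. itgb1b.1 took 6.69%, 10.4% and 8.89% of the reads of itgb1a, itgb1b.1 and itgb1b.2 for knockout and 14.2%, 15.0% and 14.5% for MYCN-only. The means were 8.65% ± 1.85 and 14.6% ± 0.428 (SD, n = 3), and no knockout library reached a MYCN-only one, although 3 against 3 cannot go below an exact two-sided permutation p of 0.1. Exact binomial 95% intervals, which cover counting error only, ended at 12% for the highest knockout library and began at 12.6% for the lowest MYCN-only one. The share of itgb1b.2 ran from 6.05% to 16.7% in knockout and from 5.44% to 21.6% in MYCN-only libraries, so its groups overlapped. The symbol itgb1b had a count of 0 in all 6 libraries, which allows up to 0.0977 to 0.267 CPM per library (3 counts each). In the RefSeq table of assembly GRCz12tu, itgb1b, itgb1b.2 and itgb1b.1 follow each other on chromosome 2 with no coding gene between them. The sources used here do not say how reads were divided between these similar neighbours, so their separate levels are uncertain.

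**Figure D2:**
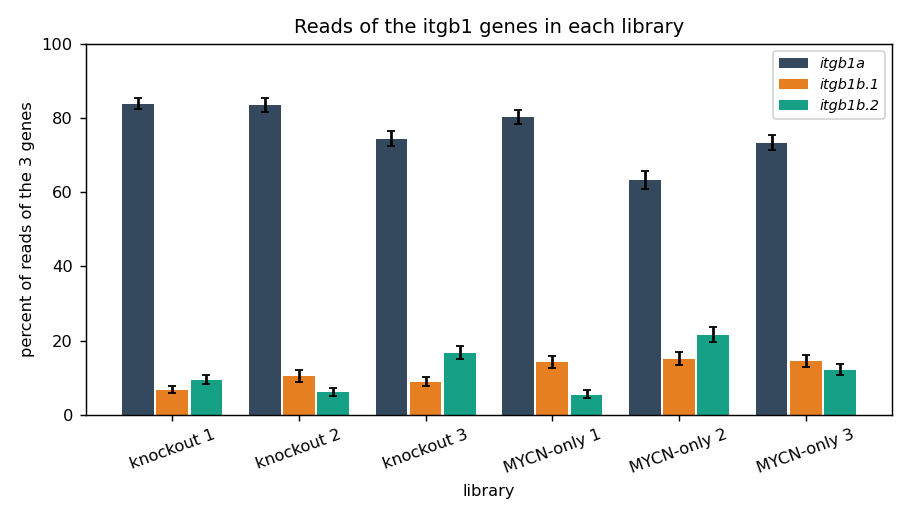
Share of the reads of itgb1a, itgb1b.1 and itgb1b.2 taken by each gene, in percent, in the 3 knockout and 3 MYCN-only libraries; bars start at 0 and error bars are exact binomial 95% intervals. The orange bars (itgb1b.1) are 6.69% to 10.4% in knockout and 14.2% to 15.0% in MYCN-only libraries, while the green bars (itgb1b.2) vary as much within a genotype as between them.

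The beta 5 gene itgb5, whose product pairs with alpha V to bind vitronectin, lay in the other direction. It stood at 23.3, 62.4 and 60.7 CPM for knockout and 21.5, 36.3 and 18.2 CPM for MYCN-only. Only knockout libraries 2 and 3, those with ovary and oocyte transcripts, lay above all MYCN-only libraries, and knockout library 1 lay within their range. The log2 fold change was 0.95 (SE 0.46; edgeR adjusted p = 0.317), 1.28 without knockout library 1 (edgeR adjusted p = 0.0517) and -0.10 in knockout library 1 alone.

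Among the alpha subunits, itga5 encodes the classical fibronectin receptor. It stood at 88.5, 160 and 146 CPM for knockout and 188, 212 and 201 CPM for MYCN-only. Knockout and MYCN-only did not overlap, and the MYCN-only libraries lay close together, at 200 ± 12.2 CPM (SD, n = 3), against 131 ± 37.8 CPM in knockout. The log2 fold change was -0.61 (SE 0.28; edgeR unadjusted p = 0.0675, adjusted p = 0.292). itga8, which encodes a receptor for nephronectin and other ligands with the same short recognition motif, stood at 5.92, 4.59 and 2.61 CPM for knockout and 11.8, 15.7 and 5.37 CPM for MYCN-only. MYCN-only library 3 lay between knockout libraries 1 and 2, so the groups overlapped, and the log2 fold change was -1.33 (SE 0.53; edgeR unadjusted p = 0.0435, adjusted p = 0.251).

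The alpha V gene itgav, which encodes the partner of beta 3 and beta 5, stood at 163, 72.3 and 42.1 CPM for knockout and 74.1, 99.8 and 65 CPM for MYCN-only. Knockout library 1 was the highest of all and knockout library 3 the lowest. The log2 fold change was 0.22 (SE 0.50; edgeR adjusted p = 0.846), -0.48 without knockout library 1 and 1.05 in that library alone. itga6b, which encodes an alpha 6 laminin receptor, was as divided, at 61.6, 4.82 and 6.09 CPM for knockout and 25.2, 55.1 and 18.2 CPM for MYCN-only. Knockout library 1 was again above, and knockout libraries 2 and 3 below, every MYCN-only library. Its log2 fold change was -0.44 (SE 1.03), and -2.58 without knockout library 1 (edgeR adjusted p = 0.0343). The epithelial markers, among which alpha 6 is commonly found, summed to 2810, 1770 and 837 CPM for knockout. For MYCN-only they summed to 1800, 6980 and 1480 CPM. Knockout library 2 and MYCN-only library 1 had similar sums but 4.82 and 25.2 CPM of itga6b. Different markers made up these similar sums, so they do not show a like epithelial content. In that order, epcam stood at 697 and 5.77 CPM, and krt4 at 29.1 and 350 CPM. The part of epithelial cells in the itga6b levels was not tested. The laminin receptor gene itga3b and the collagen receptor gene itga11a had log2 fold changes of -0.66 (SE 0.52) and -0.88 (SE 0.96), with overlapping groups, itga11a with 10 to 167 counts per library.

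Subunits were then compared with adaptors, as classes. The median log2 fold change was -0.77 over the 14 tested subunits and -0.26 over the 24 adaptors, against 0.04 over all genes tested. Of the subunits 11 were lower (78.6%), and of the adaptors 20 (83.3%), against 47.6% of all genes. At an unadjusted p under 0.05 each class had 4 lower genes. These were 28.6% of the subunits and 16.7% of the adaptors, against 7.57% of all genes. Fold changes were also less precise for subunits, with a median SE of 0.53 against 0.33 for adaptors. The distance between the classes rested on MYCN-only library 2. That library was the highest of the MYCN-only libraries for 13 of 14 subunits and for 11 of 24 adaptors, against 37.2% of all genes. Without it the medians were -0.24 for subunits, -0.19 for adaptors and 0.10 for all genes, and 9 subunits and 15 adaptors had negative log2 fold changes, against 43.7% of all genes, while 14 of the 39 members had positive ones, against 56.3%. Of the 8 genes at an unadjusted p under 0.05, 4 kept such a p without this library: itgb4, itgb3b, itgb1b.1 and ptk2bb, against 4.55% of all genes as lower. itgb5 then had one as higher, against 7.76% of all genes.

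**Figure D3:**
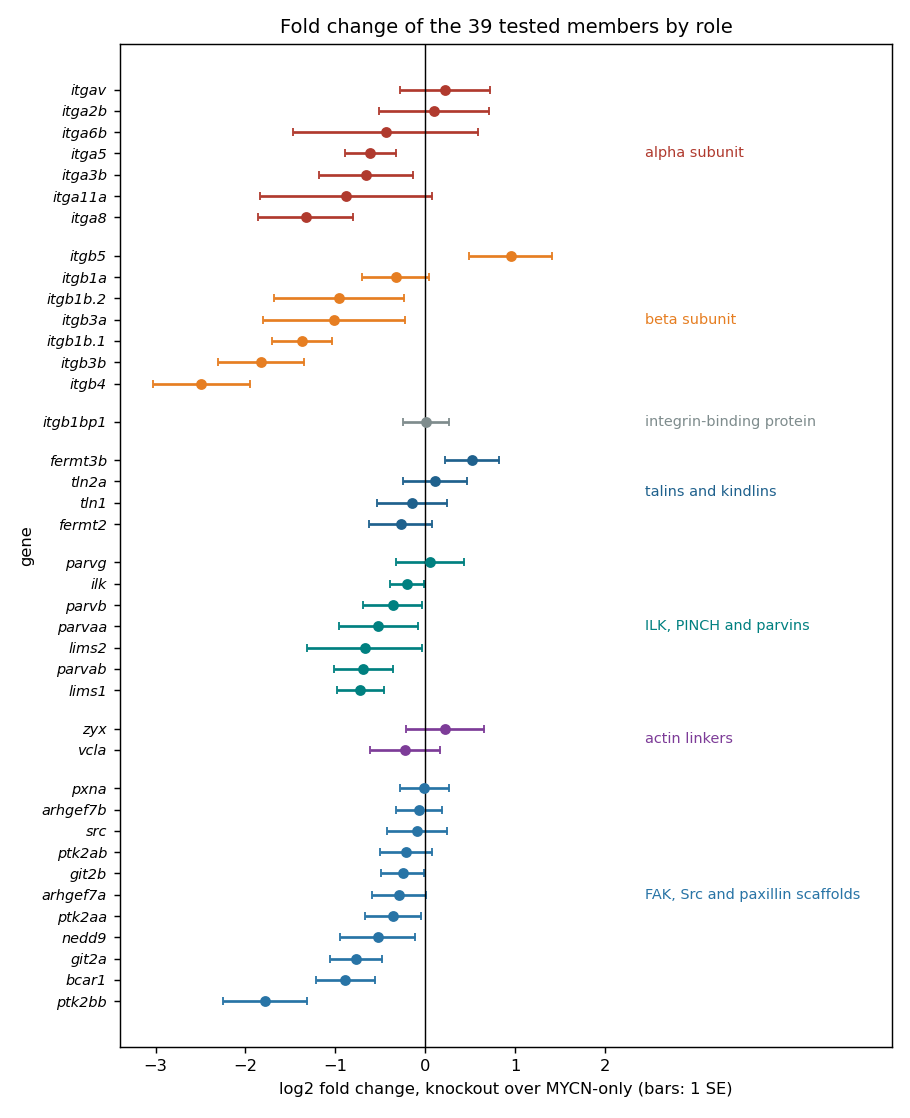
Log2 fold change of knockout over MYCN-only for the 39 tested members, grouped by role, with 1 standard error on each side. Beta subunits span -2.49 (itgb4) to 0.95 (itgb5), whereas all adaptors except ptk2bb lie between -0.89 (bcar1) and 0.52 (fermt3b).

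**Figure D4:**
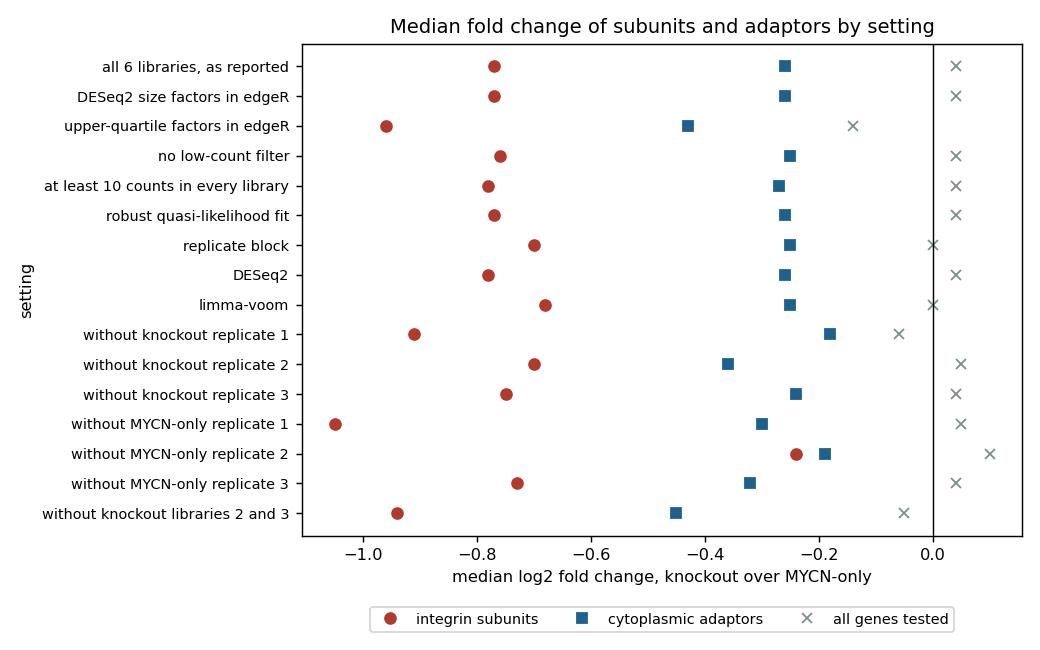
Median log2 fold change of the 14 integrin subunits (red circles), the 24 cytoplasmic adaptors (blue squares) and all genes tested (grey crosses) over all 6 libraries and under each alternative setting. The 2 classes lie at -0.77 and -0.26 over all 6 libraries and come closest, at -0.24 and -0.19, without MYCN-only replicate 2.

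The same contrast measured as a share of reads, which needs no scaling, did not separate the genotypes. Subunits took 34.0%, 22.8% and 24.3% of the reads of subunits and adaptors in knockout libraries 1, 2 and 3 and 28.7%, 33.8% and 29.3% in the MYCN-only libraries. The means were 27.0% ± 6.06 and 30.6% ± 2.78 (SD, n = 3), so the difference was within the spread of the knockout libraries. This share is weighted towards the most counted genes, such as itga5, itgav and tln1.

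The talin and kindlin genes, whose products activate integrins, had overlapping groups and log2 fold changes on both sides of 0. tln1 stood at 271, 442 and 181 CPM for knockout and 304, 431 and 255 CPM for MYCN-only (log2 fold change -0.15, SE 0.39), with the highest and the lowest library both in knockout. tln2a, the second talin, had a log2 fold change of 0.11 (SE 0.36). fermt2, the kindlin of most tissues, stood at 45.2 ± 15.2 CPM for knockout and 54.4 ± 17.8 CPM for MYCN-only (SD, n = 3; log2 fold change -0.27, SE 0.35). fermt3b, a kindlin of blood cells in mammals, was at 20.2 to 29.3 CPM for knockout and 13.2 to 20.7 CPM for MYCN-only (log2 fold change 0.52, SE 0.30; edgeR adjusted p = 0.386). The 15 leukocyte markers in the table summed to 526 to 1280 CPM for knockout and 757 to 1090 CPM for MYCN-only, with none at 0 in all libraries. itgb1bp1, whose product competes with talin and kindlin for the beta 1 tail, had a log2 fold change of 0.01 (SE 0.26).

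The ILK, PINCH and parvin proteins form a complex that links beta tails to actin. ilk itself varied least, at 56.4, 62.1 and 56.5 CPM for knockout and 71.3, 67.1 and 63.2 CPM for MYCN-only. The groups did not overlap, but the highest knockout and lowest MYCN-only libraries were close, and the log2 fold change was -0.20 (SE 0.19; edgeR unadjusted p = 0.316, adjusted p = 0.584). lims1, a PINCH gene, stood at 18.1, 27.7 and 19.1 CPM for knockout and 33.6, 37.4 and 35.8 CPM for MYCN-only. No knockout library reached the MYCN-only range, and the log2 fold change was -0.72 (SE 0.26; edgeR unadjusted p = 0.0297, adjusted p = 0.221). Its relative lims2 was low in knockout library 1, at 1.71 CPM from 33 counts, and at 6.25 to 13.4 CPM in the other 5 libraries. The parvin genes parvaa, parvab and parvb had log2 fold changes of -0.52, -0.69 and -0.36 with overlapping groups, and parvg, the parvin of blood cells in mammals, had 0.05.

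**Figure D5:**
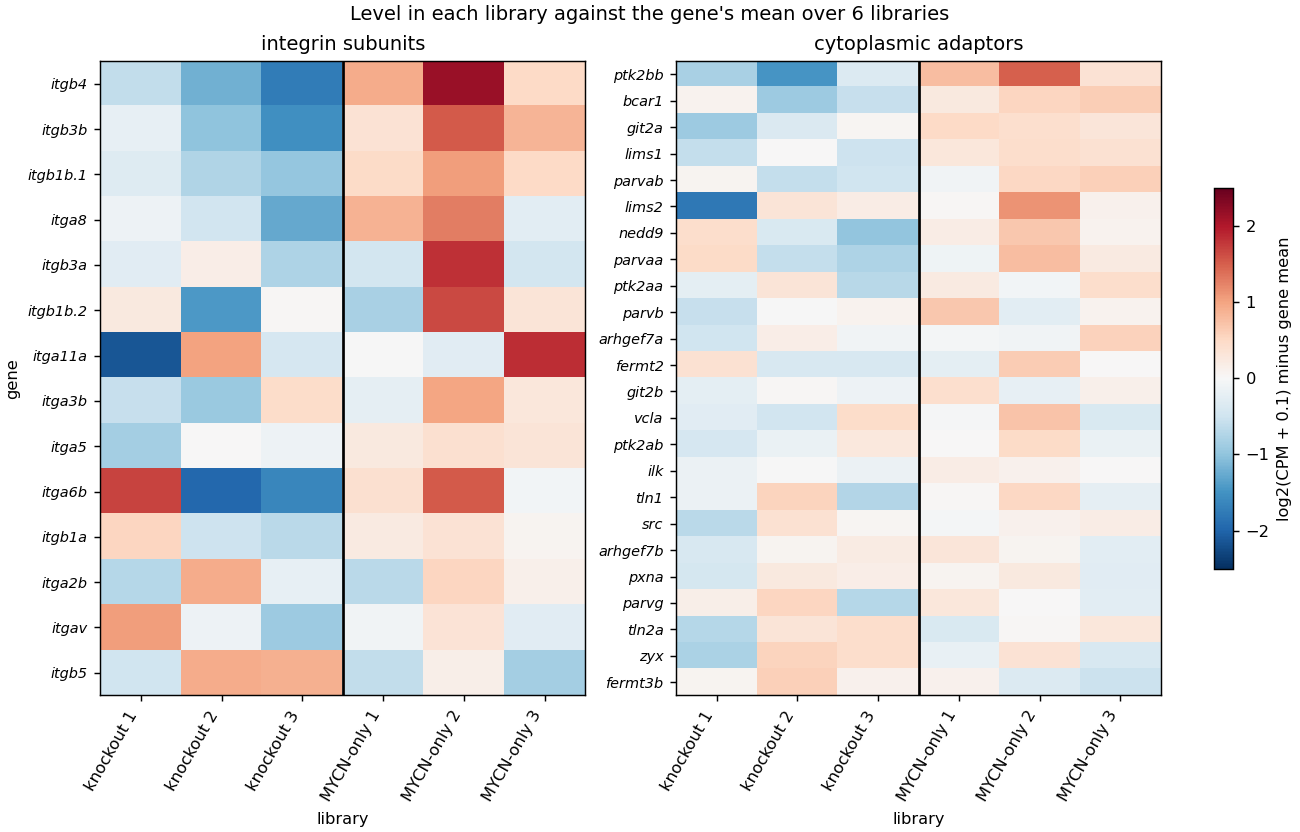
Level of each tested subunit (left) and adaptor (right) in each library, as log2(CPM + 0.1) minus the gene's mean over the 6 libraries; genes are ordered by fold change and the black line divides knockout from MYCN-only. MYCN-only library 2 is the highest MYCN-only library for 13 of 14 subunits, and itgav, itga6b and itgb1a are high in knockout library 1 and lower in knockout libraries 2 and 3.

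The actin linkers and the signalling scaffolds were next. Vinculin strengthens adhesions under tension, and its gene vcla stood at 31.4, 27.3 and 52.1 CPM for knockout and 37.1, 62.2 and 29.3 CPM for MYCN-only (log2 fold change -0.22, SE 0.39). zyx, the gene of the actin repair protein zyxin, stood at 11.1, 28.3 and 26.1 CPM for knockout and 17.0, 24.8 and 14.6 CPM for MYCN-only (log2 fold change 0.22, SE 0.43). Knockout library 1 was the lowest of all 6 and knockout libraries 2 and 3 the highest. The focal adhesion kinase genes ptk2aa and ptk2ab had overlapping groups, at 43.3, 63.7 and 31.5 against 59.7, 48.8 and 69.2 CPM for ptk2aa (log2 fold change -0.36, SE 0.31) and 55.1, 65.9 and 89.0 against 74.6, 103 and 65.5 CPM for ptk2ab (-0.21, SE 0.29). The genes of Src and paxillin lay close to 0 as well. src stood at 12.9, 27.1 and 21.5 CPM for knockout and 19.9, 22.3 and 23.5 CPM for MYCN-only (log2 fold change -0.09, SE 0.33), and pxna at 38.4, 61.9 and 58.7 against 55.0, 61.9 and 43.2 CPM (-0.01, SE 0.27).

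The adaptor with the widest difference was ptk2bb, a gene of Pyk2, the calcium-responsive relative of focal adhesion kinase that is prominent in neurons and blood cells of mammals. It stood at 4.26, 2.65 and 5.89 CPM for knockout and 12.9, 21.5 and 9.75 CPM for MYCN-only, from 71 to 242 counts. The groups did not overlap, and knockout library 1 lay between the other knockout libraries. The log2 fold change was -1.78 (SE 0.47; edgeR unadjusted p = 0.00768, adjusted p = 0.184), -1.77 in knockout library 1 alone and -1.39 without MYCN-only library 2. DESeq2 called it (adjusted p = 0.00841, in a range of 0.00841 to 0.416 over the 15 settings).

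bcar1 encodes p130Cas, the scaffold that focal adhesion kinase and Src phosphorylate. It stood at 28.3, 14.1 and 17.8 CPM for knockout and 31.8, 39 and 41.2 CPM for MYCN-only. Knockout stayed below MYCN-only throughout, and the log2 fold change was -0.89 (SE 0.33; edgeR unadjusted p = 0.0305, adjusted p = 0.223), and the gene passed without knockout library 1 (-1.23, edgeR adjusted p = 0.0280, in a range of 0.0280 to 0.514). The related Cas gene nedd9 had a log2 fold change of -0.53 (SE 0.42) with overlapping groups.

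GIT proteins and beta-PIX (arhgef7) form a complex that binds paxillin and controls Arf and Rac. git2a stood at 20.9, 30.4 and 40.3 CPM for knockout and 55.6, 52.5 and 48.1 CPM for MYCN-only. All knockout libraries were lower (log2 fold change -0.77, SE 0.29; edgeR unadjusted p = 0.0353, adjusted p = 0.234), whereas its duplicate git2b overlapped between the genotypes (log2 fold change -0.25, SE 0.24). git2b took 62.1% ± 6.94 of the reads of the pair in knockout and 52.3% ± 5.08 in MYCN-only libraries (SD, n = 3), also with overlap. arhgef7a and arhgef7b had log2 fold changes of -0.29 (SE 0.30) and -0.07 (SE 0.26).

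Knockout library 1 was under the whole MYCN-only range for 16 of 24 adaptors and 7 of 14 subunits, against 33.9% of all genes, and above for 0 adaptors and 3 subunits (itga6b, itgav and itgb1a), against 33.8%. Knockout libraries 2 and 3 were both under that range for 9 adaptors and 7 subunits, against 24.7% of all genes, and above for tln2a, zyx and itgb5, against 27.1%. Without knockout library 1, 29 of the 39 genes had negative log2 fold changes, against 53% of all genes, and edgeR called 6 of the 39 genes as lower at an adjusted p under 0.05 (itgb4, itgb3b, itgb1b.1, itgb1a, itga6b and bcar1), against 3.51% of all genes, and 0 as higher, against 11.2%. Of these 6, 5 were subunits. That fit kept only the knockout libraries with ovary and oocyte transcripts, and it called 1923 genes over all tested genes, against 0 with all 6 libraries. The part of these transcripts in its calls was not tested. At an unadjusted p under 0.05 that fit had 13 lower genes, against 13.6% of all genes, and 1 higher, against 19.1%. With knockout library 1 alone, 31 genes had negative log2 fold changes, against 52.5% of all genes, and 8 positive ones, against 47.5%; 5 had an unadjusted p under 0.05 as lower (itga5, git2a, lims1, lims2 and ptk2bb), against 8.1% of all genes. Knockout library 1 alone was not lower throughout: the 8 positive log2 fold changes included those of itgav (1.05), itga6b (0.93) and itgb1a (0.34). With 1 knockout library, the p-values of that fit rest on the spread of the MYCN-only libraries. These comparisons share their MYCN-only libraries, and whether the knockout libraries differ from each other was not tested.

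Most genes of the matrix ligands of these receptors had lower levels in knockout too. Of 23 ligand genes tested, 18 had negative log2 fold changes (median -0.80), against 47.6% of all genes. An unadjusted p under 0.05 was found for 8 lower genes, against 7.57% of all genes, and for 1 higher gene, against 11.5%, and 0 passed in edgeR over all genes. In 10 of them the groups did not overlap, with knockout the lower, against 12.3% of all genes. These included the laminin genes lama1, lama2, lama4, lama5, lamb1a, lamb1b and lamc1, which encode chains of the ligand of alpha 3, alpha 6 and beta 4 integrins. lama2 stood at 11.9, 14.7 and 6.64 CPM for knockout and 40.4, 75.9 and 28.4 CPM for MYCN-only (log2 fold change -2.12, SE 0.48; edgeR adjusted p = 0.174). Its highest level was in MYCN-only library 2, as were the highest summed levels of the epithelial and muscle markers, whose part in it was not tested. lama5 stood at 195, 249 and 276 CPM for knockout and 325, 534 and 517 CPM for MYCN-only (-0.93, SE 0.28; edgeR adjusted p = 0.197). The fibronectin gene fn1a, for the ligand of alpha 5 beta 1, lay the other way, at 223, 315 and 136 CPM for knockout and 138, 112 and 86.7 CPM for MYCN-only (1.0, SE 0.36; edgeR adjusted p = 0.223). Its groups overlapped by a narrow margin, between knockout library 3 and MYCN-only library 1. The other fibronectin gene, fn1b, had 1990, 665 and 616 CPM across the knockout libraries and 548, 4050 and 1100 CPM across the MYCN-only ones (-0.80, SE 0.82), with overlap and with MYCN-only library 2 the highest.

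Of 9 tested genes listed for the GTPase Rap1 and integrin activation, 7 lay lower (median log2 fold change -0.26), against 47.6% of all genes. The list mixes genes that promote and oppose activation, so this count gives no direction for it. Of the 9 genes, 2 had an unadjusted p under 0.05 as lower, against 7.57% of all genes. rap1gap, which encodes a protein that turns Rap1 off, stood at 100, 68.4 and 47.0 CPM for knockout and 235, 276 and 130 CPM for MYCN-only (log2 fold change -1.57, SE 0.40; edgeR adjusted p = 0.183). kank2, for a protein that binds talin at the rim of adhesions, stood at 80.4, 98 and 69.0 CPM for knockout and 150, 115 and 131 CPM for MYCN-only (-0.68, SE 0.24; edgeR adjusted p = 0.215). The groups did not overlap for either gene. rap1aa, rap1ab and rap1b, which encode Rap1 itself, had log2 fold changes of 0.17, 0.29 and -0.16 with overlapping groups. Of the integrin subunits outside the rule, itgbl1, for a protein related to beta subunits, was the only listed gene in the table, at 1.45 to 3.06 CPM.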

How the data were processed

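RNA of zebrafish tumours was sequenced in 6 stranded paired-end libraries, per the labels' protocols. Per the submitters' processing notes, the build was danRer10 and the authors used TopHat2 2.0.14 and Bowtie2 2.2.6, and Subread with featureCounts 1.4.6. The sources used here do not give the annotation, the strand setting or the handling of multiply mapped reads, so overlapping genes and near-identical copies are uncertain. What the authors deposited is a table of raw read counts for each gene symbol. Precision is limited by 3 libraries a group and, for low genes, by depth.

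Members were found by symbol, and all 40 matched a RefSeq symbol or synonym (assembly GRCz12tu, used for names and gene order). The members and lists were chosen with earlier results of these data known. After a low-count filter (filterByExpr), 12821 genes were fitted in edgeR with TMM scaling, and genotype was tested by the quasi-likelihood F test with Benjamini-Hochberg adjustment over all of them, at a threshold of 0.05. The biological coefficient of variation was 52.5%. A standard error is the size of the log2 fold change over the square root of F. In simulated counts for knockout against MYCN-only at this spread (12745 genes), 0% of 2-fold, 11.9% of 4-fold and 100% of 16-fold changes were found. At a spread of 20%, 79.1% of 2-fold and 100% of 4-fold changes were found. Each run gave all genes the same spread, so it does not give the power for a single member.

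Values per library follow a rule: members with an unadjusted p under 0.05, members whose groups do not overlap, and a set of core genes. Those of itgb5, itga6b and zyx, and of the pathway genes named, were added after their values were seen. Sums without the most counted marker were added likewise. Pathway and marker lists were matched by exact symbol: ligands, Rap1, Crk and Rac output, actin-side proteins, subunits outside the rule, and markers of 9 cell types. Every pair of libraries of the same genotype differed beyond sampling noise (lowest chi-square over its degrees of freedom 66.7). Alternatives were other scalings and filters, a robust fit, DESeq2, limma-voom, the replicate block, leaving out each library, and leaving out knockout libraries 2 and 3 together, where the lone library is assumed to vary like the MYCN-only ones. Tools were R 4.3.3, edgeR 4.0.16, limma 3.58.1, DESeq2 1.42.0, Python 3.11 and matplotlib 3.10.9.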

Additional observations from a re-analysis of the deposited data

How the results depend on the processing

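Over all tested genes, edgeR called 0 genes, DESeq2 1323, limma-voom 1, the fit with the replicate block 8, and the fit without knockout libraries 2 and 3 called 9; leaving out each library gave 0 (MYCN-only libraries 1 and 3, knockout libraries 2 and 3) to 1923 (knockout library 1). Members lower at an unadjusted p under 0.05 numbered 8, and 4 to 13 when each library was left out, with higher ones 0 to 1; without knockout libraries 2 and 3 there were 5 lower and 1 higher. The share of all genes with such a p moved too, from 7.57% as lower and 11.5% as higher with all 6 libraries. It was 13.6% and 19.1% without knockout library 1, the setting with 13 lower members. Without MYCN-only library 2, the setting with 4, it was 4.55% and 7.76%. The subunit median was -0.77, and -1.05 to -0.24 when each library was left out, the adaptor median -0.26, and -0.36 to -0.18. Without knockout libraries 2 and 3 they were -0.94 and -0.45. Upper-quartile scaling gave -0.96 and -0.43, but moved the median of all genes from 0.04 to -0.14; relative to that median they were -0.82 and -0.29, against -0.81 and -0.30 with TMM. Same-numbered libraries deviated at correlations of -0.0928, -0.153 and 0.19, so the numbers were not treated as pairs, and only number 3 matched its own number best.

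The fold change of itgb1a turned to 0.34 without knockout libraries 2 and 3. With each library left out, log2 fold changes crossed 0 for itgav (-0.48 to 0.57), pxna (-0.15 to 0.18), src (-0.36 to 0.15), tln1 (-0.56 to 0.13), vcla (-0.54 to 0.17) and ptk2ab (-0.42 to 0.02). The cause was not tested. The other 12 of 19 genes tested in this way kept their direction under the 15 settings. Shares within pairs, in percentage points of knockout minus MYCN-only, moved without knockout libraries 2 and 3 to -9.50 for itgb1b.1 with itgb1a, -2.86 for itgb3b with itgb3a, -7.95 for parvab with parvaa, 15.8 for git2b with git2a and -10.6 for lims2 with lims1. Depth limits itga11a, itgb3a and lims2 most.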

Other observations

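Genes further along the pathway gave few differences. Of 32 tested genes of Crk, Dock, Rac and Src family output, 21 had negative log2 fold changes (median -0.13), against 47.6% of all genes. Among the 32, 1 lower and 1 higher gene reached an unadjusted p under 0.05, against 7.57% and 11.5% of all genes, with 0 passing in edgeR over all genes. The groups did not overlap for 2 lower and 4 higher genes, against 12.3% and 11.6% of all genes. The higher gene was rac1a, which encodes the GTPase that drives lamellipodia, at 39, 108 and 158 CPM in knockout and at 24, 24.5 and 25.3 CPM in MYCN-only libraries (log2 fold change 2.04, SE 0.49; edgeR adjusted p = 0.177). All 3 knockout libraries were above all MYCN-only libraries, with knockout libraries 2 and 3 the highest. Those are the libraries with ovary and oocyte transcripts, whose part in the difference was not tested. The duplicate of rac1a, rac1b, had a log2 fold change of -0.47 (SE 0.30). The lower gene was asap2b, for an Arf GAP, at 17.2, 11.7 and 6.77 against 23.1, 34.8 and 24.3 CPM (-1.20, SE 0.40).

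Of 25 tested actin-side adhesion genes, 15 lay lower (median log2 fold change -0.33), against 47.6% of all genes. An unadjusted p under 0.05 was reached by 4 lower genes and 1 higher, against 7.57% and 11.5% of all genes. The lower ones were fhl2b (-3.69), fhl1a (-3.33), actn2b (-2.51) and pdlim5a (-1.96), genes known from muscle. Each was highest in MYCN-only library 2, the library with the most muscle marker reads, whose part in these differences was not tested. fhl2b stood at 0.986, 0.299 and 1.2 CPM in knockout and 5.59, 21.5 and 5.31 CPM in MYCN-only libraries. Its groups and those of actn2b did not overlap, while those of fhl1a and pdlim5a did. The higher one was pdlim2, at 15.8, 39.3 and 51.1 CPM in knockout and 6.55, 12.4 and 4.79 CPM in MYCN-only libraries (2.17, SE 0.56; edgeR adjusted p = 0.183). It was highest in knockout libraries 2 and 3, those with ovary and oocyte transcripts, whose part in the difference was not tested. Markers of vascular endothelium summed to 1150, 505 and 436 CPM in knockout libraries 1 to 3 and 729, 855 and 665 CPM in MYCN-only libraries 1 to 3. Knockout library 1 was above, and knockout libraries 2 and 3 below, every MYCN-only library. The levels of itga6b and itgb1a were divided in the same way, and the part of endothelial cells in them was not tested. Of 15 endothelial markers tested, 11 were lower (median log2 fold change -0.34), against 47.6% of all genes. Of 11 tested markers of fibroblasts and mural cells, 9 were lower (median -1.09), against 47.6% of all genes, with pdgfrb at 0 in all libraries. Without rgs5a, the most counted of them, they summed to 180, 868 and 260 CPM in knockout and 1100, 2310 and 739 CPM in MYCN-only libraries, so the groups overlapped.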
